A study of Triticum aestivum with 24 samples.

Results

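The homeobox leucine-zipper (HD-ZIP) transcripts TraesCS1A01G157500.1, TraesCS1B01G173900.1 and TraesCS5A01G375800.1 are listed targets of the microRNA family miR166 in bread wheat. They were taken by transcript ID, 3 of 137056 transcripts in the table of estimated counts, and all 3 passed the filter on low counts that left 54517 transcripts. Below they are called the 1A, 1B and 5A transcripts after the chromosome in their ID. Each of their genes has no other transcript in the table. The study's list of microRNA targets names each of them a homeobox leucine-zipper protein, and no gene symbol or coordinate is given here.

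Leaves of Triticum aestivum cv Chinese Spring were profiled by RNA-seq in 24 libraries, 4 biological replicates in each of 6 groups. The 3 control groups grew with 16 h of light at 18 °C and 8 h of dark at 16 °C, and their leaves were cut on days 0, 1 and 4, counted from the end of the treatment (DAT). The 3 heat groups were held at 37 °C for 5 days from the boot stage, well watered, and then went back to the control regime, with leaves taken at the same 0, 1 and 4 DAT. All 144 plants came from seed of a single selfed plant, each treatment had 72 plants, and RNA of 18 plants was pooled per replicate in the description of the small RNA libraries. Use of those pools for RNA-seq is an inference, drawn from matching group and replicate names. By the study's methods each plant gave leaf tissue at every time, so libraries of a treatment with the same replicate number may come from the same plants. Total estimated counts per library were 5403461 to 16112270. Levels are CPM, counts scaled to a common library total after TMM scaling, a factor per library that aligns the bulk of the transcripts between libraries. The leaf marker Rubisco small chain (TraesCS5B01G162800.1), the small subunit of the carbon-fixing enzyme, stood between 967 and 10182 CPM in the 24 libraries. The other leaf markers were also found in every library, at 7.46 CPM or more for TraesCS5A01G109600.1 (a photosystem II PsbP family protein) and at 6.93 CPM or more for TraesCSU01G269500.1 (cytochrome b6-f subunit 4).

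HD-ZIP proteins are plant transcription factors that join a DNA-binding homeodomain to a leucine zipper, through which they pair. In Arabidopsis thaliana, the class III members are the ones that carry a miR166 site. There they set the upper (adaxial) side of the leaf and pattern the vascular strands and the shoot meristem, and miR166, loaded into an argonaute protein, guides cleavage of their mRNA on the lower side. Which class the wheat transcripts belong to was not determined here.

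The miRNA and the site are shown because the site is the feature by which these transcripts are grouped. The study lists 23 miR166 sequences, 20 of them from the 3p arm, and all 20 hold the run tcggaccaggcttca. This run is followed by ttc in 11 of them and by atc in 9. They differ in where the 5′ end lies, in length and in single bases, and the seed, bases 2 to 8 in capitals, takes 5 forms. CGGACCA is the seed of 10 of the 20, TCGGACC of 6 and CTCGGAC of 2, while TCTCGGA and TTCGGAC are each the seed of 1. A sequence of each form is written here 5′ to 3′, with T for U.
miR166-9-3p: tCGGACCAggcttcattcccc
miR166-4.1-3p: tTCGGACCaggcttcattccc
miR166-7.2-3p: tCTCGGACcaggcttcaatccc
miR166-5.2-3p: aTCTCGGAccaggcttcaatc
miR166-12.1-3p: tTTCGGACcaggcttcattcc

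The target sites, also 5′ to 3′, are set out with the bases opposite the seed of miR166-4.1-3p in capitals.
TraesCS1A01G157500.1: tgggatgaagcctGGTCCGGa
TraesCS1B01G173900.1: tgggatgaagcctGGTCCGGa
TraesCS5A01G375800.1: tgggatgaagcctGGTCCGGa
TraesCS5B01G378000.1: tgggatgaagcctGGTCCGGa
TraesCS5A01G043400.1: gggaatgaagcctGGTCCGGa
TraesCS5B01G047200.1: gggaatgaagcctGGTCCGGa
The site of the 1A, 1B and 5A transcripts is the same over all 21 bases, and it is shared by TraesCS5B01G378000.1, a further listed HD-ZIP transcript on 5B. The extended sites join the bases of the ungapped miR166 alignments listed for each transcript, so their length follows that listing. The extended site of TraesCS5B01G378000.1, 24 bases, equals that of the 5A transcript without its last base. Those of the members, 24 bases in the 1A and 1B transcripts and 25 in the 5A transcript, differ in their flanks.
TraesCS1A01G157500.1, extended: cctgggatgaagcctGGTCCGGat
TraesCS1B01G173900.1, extended: cctgggatgaagcctGGTCCGGat
TraesCS5A01G375800.1, extended: gttgggatgaagcctGGTCCGGatt
Against miR166-4.1-3p the shared site makes 18 Watson-Crick pairs, G:U pairs at miRNA bases 2 and 18, and a mismatch at base 21. The remaining listed transcripts, TraesCS5A01G043400.1 and TraesCS5B01G047200.1, make 20 Watson-Crick pairs and a G:U pair at base 2. Counted from the 5′ end of the site, the shared site differs from theirs by G1T and A4G, where their base is written first. The members thus share their site and were compared by their levels.

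Directly after the 5 days of heat the 5A transcript was called as higher. In control at 0 DAT it stood at 1.58, 1.02, 1.04 and 0.70 CPM in replicates 1 to 4, and in heat at 2.67, 3.15, 3.64 and 4.03 CPM. Every heat library lay above every control library. The control mean was 1.09 ± 0.36 CPM and the heat mean 3.37 ± 0.59 CPM (SD, n = 4). The log2 fold change was 1.61 ± 0.29 (SE, edgeR adjusted p = 0.00029), a 3.05-fold rise with a 95% confidence interval of 2.01 to 4.63. Of the 3 members 1 was called at 0 DAT, where 24.3% of all tested transcripts were called in either direction and 11% as higher. These values rest on low counts, 5.87 to 20.4 estimated counts per control library and 40.3 to 66.4 per heat library. In bulk leaf RNA a change in the number of cells that make a transcript and a change in RNA per cell cannot be told apart.

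The 1A transcript, with the same site, was not called at 0 DAT. It stood at 9.40, 10.4, 9.45 and 11.3 CPM in control and at 9.28, 8.19, 10.02 and 10.9 CPM in heat. The groups overlapped, although 2 heat libraries lay below every control library. The means were 10.1 ± 0.90 and 9.60 ± 1.15 CPM (SD, n = 4), and the log2 fold change was -0.080 ± 0.26 (SE, edgeR adjusted p = 0.87). Its 95% confidence interval ran from 0.65-fold to 1.37-fold.

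The 1B transcript was not called either, and its mean was higher in heat. It stood at 8.69, 12.4, 8.97 and 6.93 CPM in control and at 12.1, 13.7, 13.7 and 11.5 CPM in heat. Heat replicates 2 and 3 lay above every control library, and the groups overlapped through control replicate 2. The means were 9.24 ± 2.28 and 12.7 ± 1.13 CPM (SD, n = 4), with a log2 fold change of 0.46 ± 0.28 (SE, edgeR adjusted p = 0.26) and a 95% confidence interval of 0.92-fold to 2.07-fold.

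The call of the 1B transcript depended on how libraries were scaled. The TMM factors were 1.23 to 1.53 in the heat libraries of 0 DAT and 0.79 to 1.02 in their controls. With total counts alone the median log2 fold change of all transcripts at 0 DAT moved from 0.031 to 0.54, and the higher share of the calls from 45.2% to 82.7%. On that scale the 1B transcript was called as higher (log2 fold change 0.96, edgeR adjusted p = 0.0059). The 1A transcript then had 0.42 (edgeR adjusted p = 0.11) and the 5A transcript 2.10 (edgeR adjusted p = 0.0002). At the same time the Rubisco small chain was at 4965 ± 1496 CPM in control and at 1835 ± 630 CPM in heat on the TMM scale (SD, n = 4), a log2 fold change of -1.44 ± 0.45 (SE, edgeR adjusted p = 0.023). The PsbP family marker rose (0.58, edgeR adjusted p = 0.023) and the cytochrome b6-f marker had 0.53 (edgeR adjusted p = 0.46). At 1 DAT both were called as higher (0.76 and 2.03, edgeR adjusted p = 0.0091 and 0.0069). The cytochrome b6-f marker reached 81.3 CPM in heat replicate 3 of that time. Rubisco small chain was not called at 1 DAT (-0.24, edgeR adjusted p = 0.8), and no marker was called at 4 DAT. The part of these shifts in the HD-ZIP values was not tested.

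**Figure D1:**
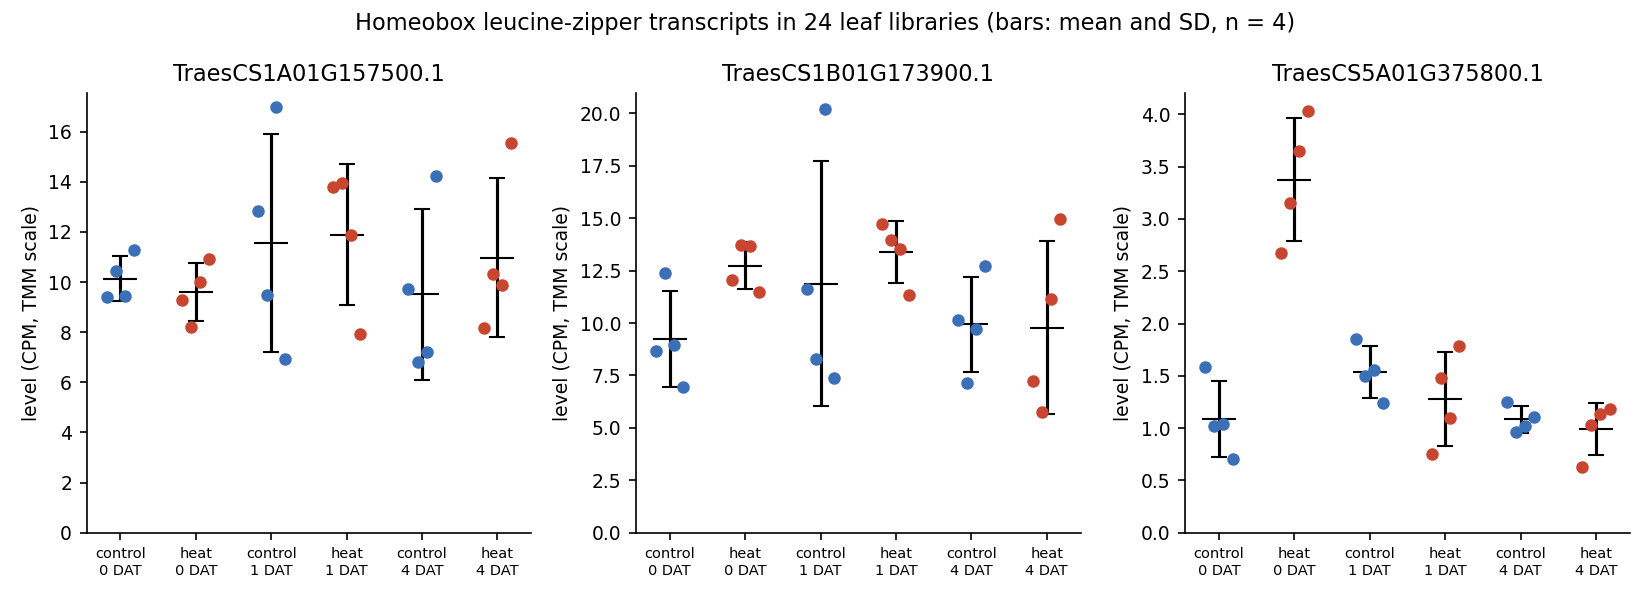
Level of each HD-ZIP transcript in CPM on the TMM scale (vertical axis, starting at 0) in the 6 groups, with a point per library in replicate order, blue for control and red for heat, and bars for the mean and SD of n = 4. The 4 heat libraries of the 5A transcript at 0 DAT lie between 2.67 and 4.03 CPM, while its 20 other libraries reach at most 1.85 CPM.

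After 1 day of recovery the 5A transcript was back among the control values. Control libraries held 1.85, 1.501, 1.56 and 1.24 CPM and heat libraries 0.76, 1.48, 1.10 and 1.79 CPM. The groups overlapped, with 2 heat libraries below every control library. The log2 fold change was -0.25 ± 0.29 (SE, edgeR adjusted p = 0.73), with a 95% confidence interval of 0.55-fold to 1.29-fold. None of the 3 members was called at 1 DAT by edgeR or by DESeq2, where 13.5% of the tested transcripts were called by edgeR.

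The other members were spread more widely at 1 DAT than at 0 DAT. In control at 1 DAT the SD was 37.6% of the mean for 1A and 49.2% for 1B, against 16.2% for 5A. In heat it was 23.6% and 10.9%, against 35.2% for 5A. The 1A transcript had 12.8, 9.50, 17.0 and 6.93 CPM in control and 13.8, 13.9, 11.9 and 7.92 CPM in heat. The 1B transcript had 11.6, 8.30, 20.2 and 7.37 CPM in control and 14.7, 13.9, 13.5 and 11.3 CPM in heat. In both, the heat range lay inside the control range. The log2 fold changes were 0.047 ± 0.26 (SE, edgeR adjusted p = 0.95) for the 1A and 0.18 ± 0.28 (SE, edgeR adjusted p = 0.76) for the 1B transcript. Their 95% confidence intervals were 0.71-fold to 1.51-fold and 0.75-fold to 1.71-fold.

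At 4 DAT the 5A transcript had 1.25, 0.96, 1.02 and 1.11 CPM in control and 0.63, 1.03, 1.13 and 1.18 CPM in heat. Apart from heat replicate 1, which was below every control library, the heat values lay within the control range. The log2 fold change was -0.13 ± 0.31 (SE, edgeR adjusted p = 0.97), with a 95% confidence interval of 0.58-fold to 1.43-fold. None of the 3 members was called by edgeR or by DESeq2, and 0.18% of the tested transcripts were called by edgeR.

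At 4 DAT the 1A transcript had 9.73, 6.83, 7.23 and 14.2 CPM in control and 8.17, 10.3, 9.88 and 15.5 CPM in heat. The 1B transcript had 10.2, 7.15, 9.72 and 12.7 CPM in control and 7.22, 5.78, 11.2 and 14.95 CPM in heat. Replicate 4 was the highest library in each of these 4 groups. The log2 fold changes were 0.19 ± 0.27 (SE, edgeR adjusted p = 0.92) for the 1A transcript and -0.024 ± 0.29 (SE, edgeR adjusted p = 1) for the 1B transcript, with 95% confidence intervals of 0.78-fold to 1.68-fold and 0.65-fold to 1.497-fold.

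The wide spread of the 1A and 1B transcripts in recovery went with a few libraries. Both were the highest of their group in control 1 DAT replicate 3, control 4 DAT replicate 4 and heat 4 DAT replicate 4, whose TMM factors were 0.66, 0.76 and 0.74. These libraries also held the most Rubisco small chain of their group, 10182, 9076 and 6723 CPM. Scaled to the total count alone, without the TMM factor, the 1A transcript in control at 1 DAT ranged from 8.50 to 11.3 CPM, against 6.93 to 17.0 CPM with it. For the 1B transcript in heat the range was 9.45 to 14.2 CPM without the factor against 11.3 to 14.7 CPM with it at 1 DAT, and 5.20 to 12.1 against 5.78 to 14.95 CPM at 4 DAT. Heat 1 DAT replicate 3, whose TMM factor was 0.70, was not the highest of its group for either transcript. The part of the scaling in this spread was not tested further.

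**Figure D2:**
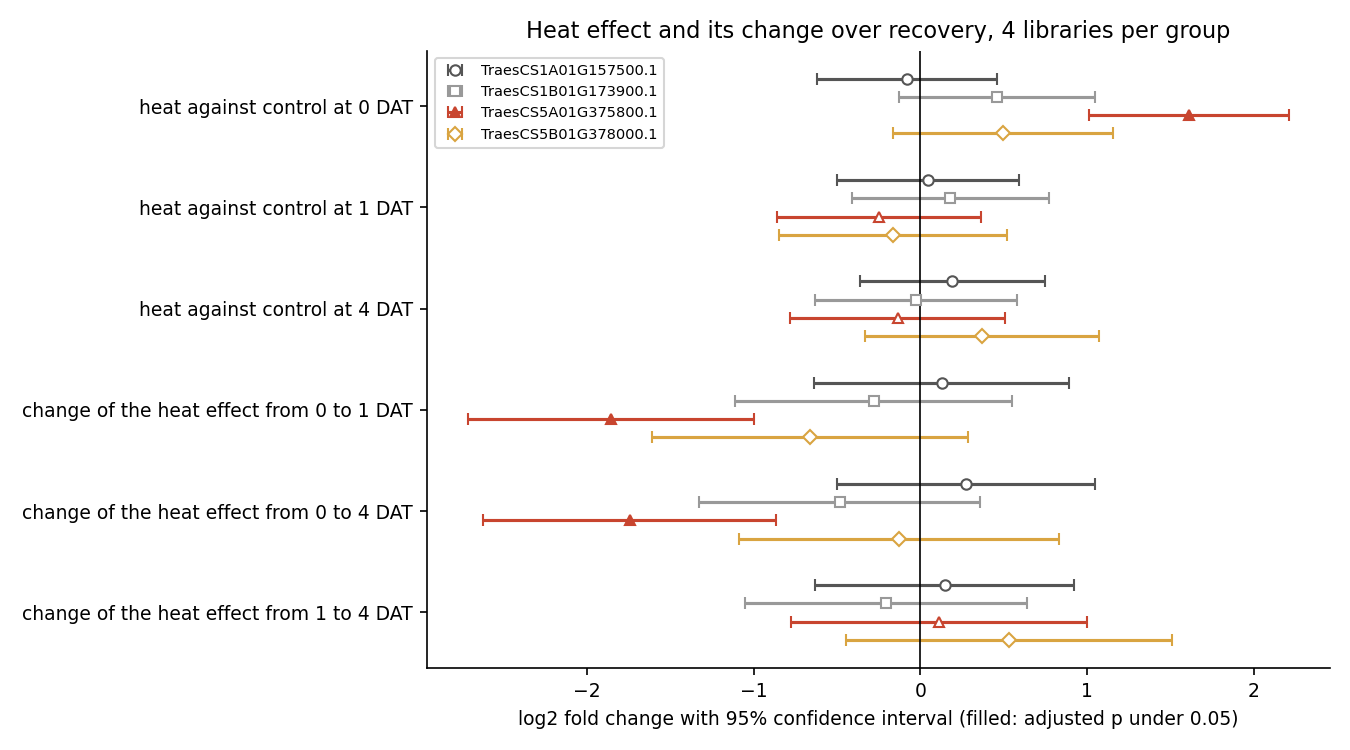
Log2 fold changes with 95% confidence intervals (horizontal axis) for the 3 members and TraesCS5B01G378000.1 in the heat against control comparisons at 0, 1 and 4 DAT and in the changes of the heat effect between times, with filled symbols for an adjusted p under 0.05. The 5A transcript is filled at 0 DAT (1.61) and in the changes from 0 to 1 DAT (-1.86) and from 0 to 4 DAT (-1.74), and all other symbols are open.

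The fall of the heat effect on the 5A transcript during recovery was itself tested. From 0 to 1 DAT the log2 fold change between heat and control changed by -1.86 ± 0.41 (SE, edgeR adjusted p = 0.0074), where 7.05% of the tested transcripts were called. From 0 to 4 DAT it changed by -1.74 ± 0.42 (SE, edgeR adjusted p = 0.01), where 10.2% were called. From 1 to 4 DAT the change was 0.11 ± 0.43 (SE, edgeR adjusted p = 0.99), with 1.87% of transcripts called. When the plant pool was blocked, 2406 transcripts were called from 0 to 1 DAT instead of 3846, and 396 from 1 to 4 DAT instead of 1018, while the 5A transcript stayed called from 0 to 1 DAT (-1.94, edgeR adjusted p = 0.0059) and from 0 to 4 DAT (-1.81, edgeR adjusted p = 0.0071). The 1A and 1B transcripts were called in none of the 3 changes. Their estimates from 0 to 1 DAT were 0.13 ± 0.37 and -0.28 ± 0.40 (SE), and from 0 to 4 DAT 0.27 ± 0.37 and -0.48 ± 0.41 (SE), with edgeR adjusted p from 0.51 to 0.91. With total counts alone the 1B transcript was called from 0 to 4 DAT (-1.08, edgeR adjusted p = 0.046), on a scale where the median of all transcripts moved from -0.032 to -0.63.

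Within the heat series the 5A transcript dropped between 0 and 1 DAT by 1.37 ± 0.29 on the log2 scale (SE, edgeR adjusted p = 0.0024), to 0.39-fold. In that comparison 14.5% of the tested transcripts were called, 5.51% as lower. Between 0 and 4 DAT it dropped by 1.76 ± 0.30 (SE, edgeR adjusted p = 0.00025), to 0.30-fold, where 20.6% were called, 9.2% as lower. Between 1 and 4 DAT the estimate was -0.39 ± 0.31 (SE, edgeR adjusted p = 0.53), where 6.9% were called, or 4.08% with the pool block. The 1A and 1B transcripts were not called within heat on the TMM scale, with log2 estimates between -0.45 and 0.31. With total counts alone the 1B transcript was called from 0 to 4 DAT (-0.93, edgeR adjusted p = 0.0088). On the TMM scale that estimate was -0.38 ± 0.29 (SE, edgeR adjusted p = 0.38). The TMM factors were 1.23 to 1.53 in heat at 0 DAT and 0.74 to 1.08 in heat at 4 DAT. The part of the scaling in this call was not tested.

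Within the control series no member was called by edgeR or by DESeq2, and none had an unadjusted edgeR p under 0.05. The 5A estimates were 0.48 ± 0.29 from 0 to 1 DAT, -0.015 ± 0.30 from 0 to 4 DAT and -0.50 ± 0.30 from 1 to 4 DAT (log2, SE), with edgeR adjusted p from 0.8 to 1. Few transcripts of any kind were called there, 0.00367% from 0 to 1 DAT and 0.00917% from 0 to 4 DAT, and 0 with the pool block. From 1 to 4 DAT edgeR called 0 transcripts, with 2927 at an unadjusted p under 0.05.

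Ordered by mean level, the 5A transcript ran from heat 0 DAT (3.37 CPM) through control 1 DAT (1.54), heat 1 DAT (1.28), control 0 DAT (1.09) and control 4 DAT (1.08) to heat 4 DAT (0.99). Heat 0 DAT differed from the next group (log2 1.13 ± 0.29 SE, edgeR adjusted p = 0.0061), and no other pair of neighbours differed beyond their spread. Neighbours were set by these same means and can mix treatment with day, so their tests only describe the order. Against each of the other 4 groups heat 0 DAT was also higher, by 1.37 to 1.76 on the log2 scale with edgeR adjusted p from 0.00025 to 0.0024. The 1A transcript ran from 11.9 CPM in heat 1 DAT to 9.51 CPM in control 4 DAT. The 1B transcript ran from 13.4 CPM in heat 1 DAT to 9.24 CPM in control 0 DAT. In the order of either of them no pair of neighbours differed beyond its spread, with edgeR adjusted p from 0.84 to 1.

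Counts of the 3 transcripts within a library do not depend on how libraries are scaled to each other, so their shares were compared as well. At 0 DAT the 5A transcript made up 8.18%, 4.22%, 5.26% and 3.64% of the members' summed counts in control replicates 1 to 4. In heat it made up 11.2%, 12.6%, 13.4% and 15.3%. All heat shares lay above all control shares, on average 13.1 ± 1.72% against 5.33 ± 2.02% (SD, n = 4). The log2 ratio of the 5A count to the summed 1A and 1B counts was higher by 1.44 in heat (exact permutation test, two-sided p = 0.0286, the smallest that 4 against 4 libraries can give). Adjusted over the 6 ratio tests this p was 0.171, so a single ratio with the smallest p could not pass. This test thus could not decide whether the members differed in their response at 0 DAT.

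In recovery the groups overlapped in the 5A share. At 1 DAT it averaged 6.60 ± 1.75% in control against 5.05 ± 2.66% in heat (SD, n = 4). At 4 DAT the averages were 5.40 ± 0.93% and 4.42 ± 0.98%. The log2 ratio differed by -0.49 at 1 DAT (exact permutation test, adjusted p = 0.371) and by -0.28 at 4 DAT (exact permutation test, adjusted p = 0.343).

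The 1A and 1B transcripts were compared in the same way, under the same limit. At 0 DAT the 1A transcript made up 52.0%, 45.7%, 51.4% and 61.8% of their sum in control replicates 1 to 4, and 43.4%, 37.3%, 42.4% and 48.7% in heat. In 3 heat libraries the share was below every control library. The log2 ratio of 1A to 1B was lower by a difference of -0.57 (exact permutation test, two-sided p = 0.0571, adjusted p = 0.171). The differences were -0.19 at 1 DAT and 0.32 at 4 DAT (exact permutation test, adjusted p = 0.343 for both).

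**Figure D3:**
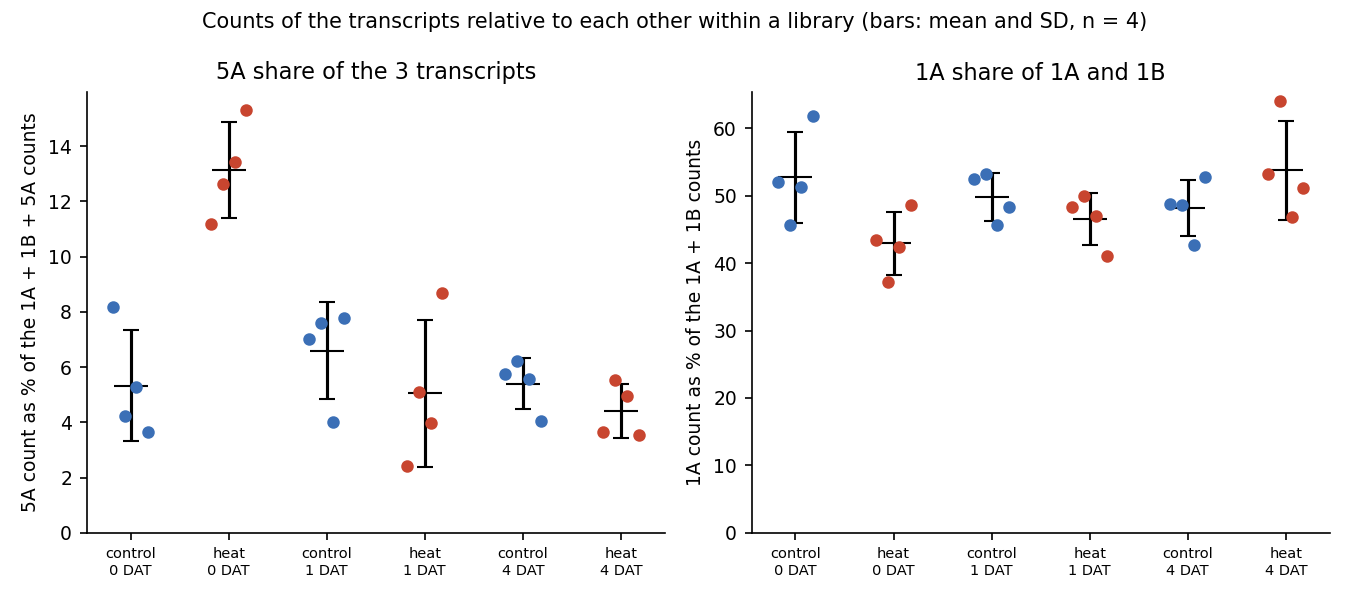
Share of the 5A count in the summed counts of the 3 members (left) and share of the 1A count in the sum of 1A and 1B (right), in percent with axes from 0, by group, with a point per library and bars for the mean and SD of n = 4. In heat at 0 DAT the 5A share is 11.2% to 15.3%, above every other library, whose highest share is 8.69%.

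The 5B transcript TraesCS5B01G378000.1, whose site equals that of the members, was looked at next, because reads that fit similar copies are divided between them when counts are estimated. At 0 DAT it had 2.21, 2.31, 1.36 and 1.17 CPM in control and 1.46, 2.77, 1.82 and 4.03 CPM in heat. The groups overlapped, with 2 heat libraries above every control library. The log2 fold change was 0.50 ± 0.32 (SE, edgeR adjusted p = 0.28), with a 95% confidence interval of 0.89-fold to 2.23-fold. It was not called at 1 DAT (-0.16 ± 0.33 SE) or at 4 DAT (0.37 ± 0.34 SE), with edgeR adjusted p = 0.82 at both times. Whether the 5A and 5B transcripts differed in their response was not tested. No listed HD-ZIP transcript lies on a D chromosome, and copies outside the study's list were not looked at.

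When the 5A and 5B counts were summed, a step chosen after seeing the data, the rise at 0 DAT was smaller and still called (log2 fold change 1.03, edgeR adjusted p = 0.0056). The change from 0 to 1 DAT was -1.27 (edgeR adjusted p = 0.042). The change from 0 to 4 DAT was -0.93 and no longer called (edgeR adjusted p = 0.13). The few flanking bases listed for both the 5A and the 5B transcript were the same. How similar the 2 transcripts are beyond these bases was not determined here.

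The remaining listed HD-ZIP transcripts were too scarce to be tested. TraesCS5A01G043400.1 had 0 to 7.65 estimated counts per library and TraesCS5B01G047200.1 had 1 to 10.2. Their mean levels were 0.18 to 0.45 CPM and 0.35 to 0.88 CPM over the 6 groups. Of the 6 listed HD-ZIP transcripts 4 were thus tested, and 1 was called at 0 DAT and none at 1 or 4 DAT, where 24.3%, 13.5% and 0.18% of all tested transcripts were called at 0, 1 and 4 DAT. These 4 had a median log2 fold change of 0.48 directly after heat, -0.059 after 1 day and 0.084 after 4 days, against 0.031, -0.045 and -0.0045 over all tested transcripts. The list is no random draw, because the study made it from degradome libraries of these plants, and the copy of its table used here is shortened.

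TraesCS2B01G407600.1, a listed homeobox transcript that the study's target list does not call leucine-zipper, was not called at any time. At 0 DAT its mean was 14.8 ± 2.78 CPM in control against 13.6 ± 5.47 CPM in heat (SD, n = 4), with a log2 fold change of -0.11 ± 0.27 (SE, edgeR adjusted p = 0.83). At 1 and 4 DAT the log2 fold changes were -0.050 ± 0.27 and -0.41 ± 0.27 (SE, edgeR adjusted p = 0.94 and 0.70).

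Argonaute proteins hold the miRNA and, in Arabidopsis thaliana, one of them withholds miR166 from the HD-ZIP mRNAs. Which argonaute the wheat transcripts encode was not determined here. The argonaute transcript TraesCS6B01G466700.1 averaged 26.4 ± 4.44 CPM in control against 27.9 ± 1.39 CPM in heat at 0 DAT (SD, n = 4), and 26.9 ± 3.70 against 39.9 ± 4.33 CPM at 4 DAT. At 4 DAT the heat libraries, 36.6 to 46.2 CPM, lay above the control libraries, 24.3 to 32.2 CPM, but the transcript was not called (log2 fold change 0.57 ± 0.15 SE, edgeR adjusted p = 0.15). DESeq2 called it at that time (adjusted p = 0.02), where DESeq2 also called more transcripts of any kind than edgeR. Within heat its log2 change from 0 to 4 DAT was 0.51 ± 0.15 on the TMM scale (SE, edgeR adjusted p = 0.019). Scaled to the total count alone, its heat means were 37.7 ± 5.47 CPM at 0 DAT and 36.9 ± 2.92 CPM at 4 DAT (SD, n = 4), and the change was -0.031 (edgeR adjusted p = 0.92). On that scale it was called in heat against control at 0 DAT (0.59, edgeR adjusted p = 0.016). The median of all transcripts was raised there too, as given above. With TMM the same comparison gave 0.082 ± 0.15 (SE, edgeR adjusted p = 0.75). Whether this transcript rose within heat thus depended on the scaling. The argonaute transcript TraesCS2D01G416500.1 had 0 to 9.77 estimated counts per library and was not tested.

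Other transcription factor families among the listed targets, selected by the study in the same way, were counted at 0 DAT. Of 11 tested squamosa promoter-binding transcripts, from the miR156 target family in plants, 1 fell. Of 9 nuclear transcription factor Y transcripts 1 fell, and of 9 scarecrow and GRAS transcripts 2 fell. None of the 2 auxin response factor transcripts and not the single basic helix-loop-helix transcript was called, and the single MYB transcript was not tested. At 0 DAT 13.3% of all tested transcripts were called as lower, 11% as higher and 24.3% in either direction.

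The transcripts most like each member were sought among 320 annotated targets with a mean of at least 1 CPM, by the root mean square difference of centred log2(CPM + 1) over the 24 libraries. Nearest to the 5A transcript were a syntaxin (TraesCS4D01G109300.1, difference 0.28), a SUPPRESSOR OF GENE SILENCING 3 protein (TraesCS4D01G163100.1, 0.30) and an endo-1,3(4)-beta-glucanase (TraesCS5A01G199400.1, 0.30). The median difference over all candidates was 0.55. At 0 DAT the mean of the syntaxin was 1.03 CPM in control against 2.64 CPM in heat, and that of SUPPRESSOR OF GENE SILENCING 3 was 5.16 against 9.69 CPM. Nearest to the 1A transcript was a disease resistance protein (TraesCS5A01G024600.1, 0.25) and nearest to the 1B transcript a glucanase (TraesCS1B01G260800.1, 0.29). Among the members the 1A and 1B transcripts were nearest to each other (0.31), and the 5A transcript was 0.54 from 1A and 0.46 from 1B. A flat profile would lie 0.32 from the 1A, 0.39 from the 1B and 0.43 from the 5A transcript by the same measure. These distances describe the profiles in shared libraries.

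**Figure D4:**
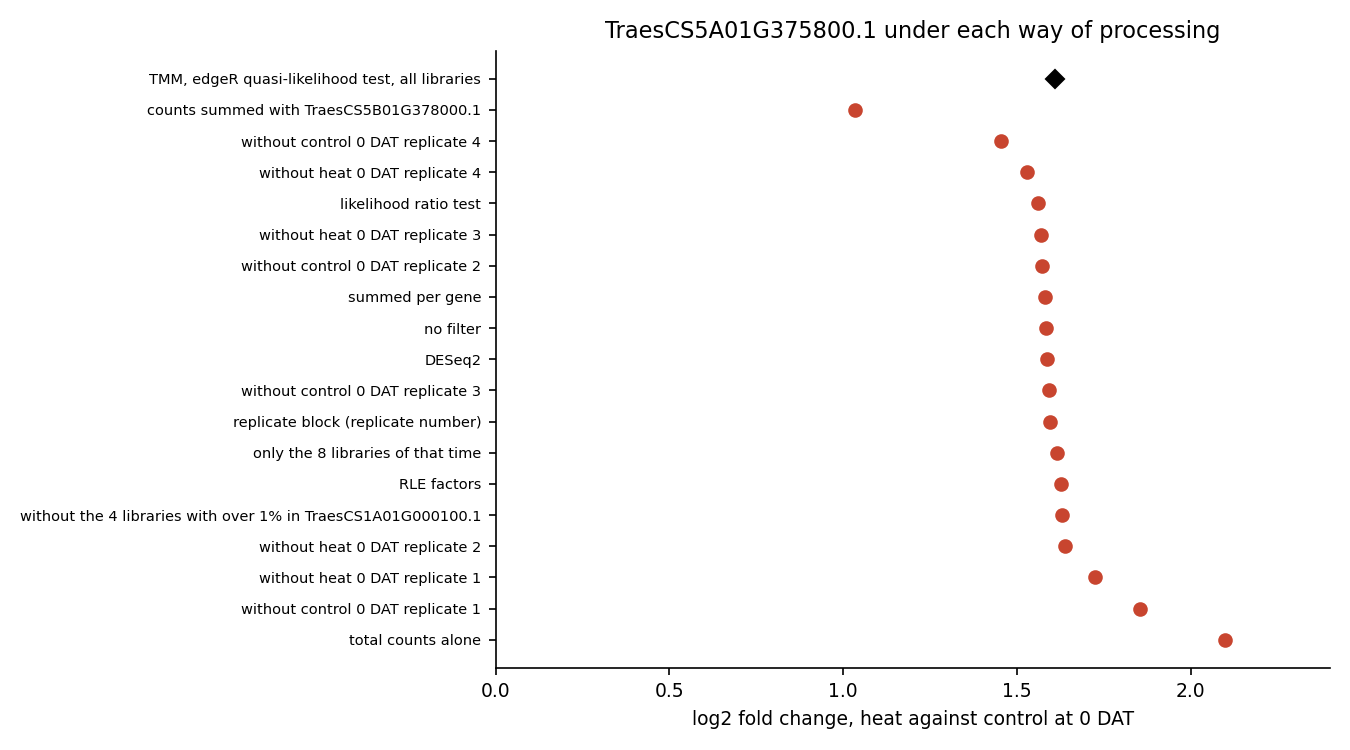
Log2 fold change of the 5A transcript between heat and control at 0 DAT (horizontal axis, from 0) under the reported processing (black diamond, 1.61) and 18 alternatives (red circles), each named on the vertical axis. The values lie between 1.03, with the 5B counts added, and 2.10, with total counts alone.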

How the data were processed

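RNA-seq of 24 leaf libraries was used, with groups read from the labels. The deposited values are estimated counts, 1 per transcript and library. The submitters' processing notes name Trimmomatic and kallisto, neither with a version, and the index for pseudoalignment was not given in the sources used here. Reads that fit several similar transcripts are shared out, and among the deposited estimated counts 38% missed a whole number by over 0.001. Counts of the 1A and 5A transcripts did so in all 24 libraries and those of the 1B transcript in 23. Values of single copies are thus uncertain beyond the replicate spread. Every sample column was used.

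After rounding, counts were analysed with edgeR 4.0.16 and limma 3.58.1 (R 4.3.3, with version 1.17.8 of data.table), and with DESeq2 1.42.0 as an alternative. Transcripts passing filterByExpr (minimum count 10, minimum total 15) entered 1 model, with TMM factors and 6 group means. For 12 contrasts p-values came from the quasi-likelihood test of edgeR (two-sided) and were adjusted after Benjamini and Hochberg over 54517 transcripts, with a call at an adjusted p under 0.05. The study states an edgeR test for small RNA only. Standard errors were taken from the model coefficient before shrinkage and its F statistic. The 95% intervals were set with them around the log2 fold change that edgeR reports, so interval and p-value need not match exactly. Ratios used a pseudocount of 0.5 and exact permutation tests. The model was tested on simulated counts drawn independently for each library, so shared pools and divided reads were not covered. Per the study's methods all plants were sampled at 0, 1 and 4 DAT and RNA was pooled by replicate, so the replicate number within a treatment may mark a shared pool, and it was used as a block for comparisons over time. Deviations from the group means of such libraries correlated by -0.38 to 0.24 (median -0.013, 2 of 24 over 0.1), against a median of 0.018 for pairs with different numbers.

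The naming rule took the 3 members, the other homeobox and the argonaute transcripts among the study's listed targets, and the 3 nearest annotated profiles of each member. Members and lists were chosen with earlier results of these data known. In the reference gene list (assembly IWGSC CS RefSeq v2.1) 0 of the 3 members were found. Alternatives covered scaling, tool, filter, gene sums, blocks and left-out libraries.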

Additional observations from a re-analysis of the deposited data

Results flagged for a closer look

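In the heat effect on TraesCS5A01G375800.1 the times differed by a direct test. The log2 fold change between heat and control changed by -1.86 from 0 to 1 DAT (edgeR adjusted p = 0.0074) and by -1.74 from 0 to 4 DAT (edgeR adjusted p = 0.01). With the 5B counts added the latter change was -0.93 and no longer called (edgeR adjusted p = 0.13). At 0 DAT 4 of 4 heat libraries lay above every control library, and at 1 and 4 DAT none did.

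In control 1 DAT replicate 3 the log2 ratio of the 5A count to the summed 1A and 1B counts was -4.52, apart from the other 3 libraries of its group. Its 5A share was 4.02%, against 7.02% to 7.77% in the others. The same library had the highest 1A and 1B levels of the series and the lowest TMM factor, 0.66. Of 30 groups of 4 libraries examined this was the only one with such a gap, and chance alone flags about 1 in 20.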

How the results depend on the processing

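The rise of the 5A transcript at 0 DAT kept its call in all 18 alternatives, with log2 fold changes from 1.03 to 2.10, and from 1.45 to 1.86 over the 8 with a library left out. Its change from 0 to 1 DAT kept its call in all 25. Its change from 0 to 4 DAT lost it with the 5B counts added (-0.93, edgeR adjusted p = 0.13, added after seeing the data). With the replicate number as a block the rise at 0 DAT was 1.60 (edgeR adjusted p = 0.0011), and the block changed no call of a member. No link other than the number is stated for heat and control libraries. Deviations from the group means of those with the same number and time correlated by -0.025 to 0.33 (median 0.12, 8 of 12 over 0.1). For pairs with different numbers the median was -0.038. Whether the number marks a shared set was not tested. With the pool of plants as a replicate block over time no call of a member changed either, and 2223 instead of 3761 transcripts were called within heat from 1 to 4 DAT. Of 746 recomputed values over all results 691 kept direction and side of the threshold, 1 call was lost and 3 were gained.

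The 3 gains were the 1B transcript with total counts alone, at 0 DAT (0.96), in the change from 0 to 4 DAT (-1.08) and within heat from 0 to 4 DAT (-0.93). The other 51 were changes of sign of values that were not called. With total counts alone these were, for 1A, 0.42 at 0 DAT, -0.26, -0.30 and -0.043 in the changes from 0 to 1, 0 to 4 and 1 to 4 DAT, and -0.21 and -0.38 within heat from 0 to 1 and 0 to 4 DAT. For 1B it was -0.43 within heat from 0 to 1 DAT, and for 5A -0.12 from 1 to 4 DAT and 0.050 within control from 0 to 4 DAT. With 1A and 1B counts summed, also added after seeing the data, the 1A values became 0.20 at 0 DAT, -0.087, -0.11 and -0.027 in the same 3 changes, -0.11 within heat and 0.0030 within control from 0 to 4 DAT. When the 4 libraries were left out in which TraesCS1A01G000100.1 took over 1% of the total, added likewise, 1A gave -0.20 at 4 DAT, -0.14 and -0.28 in the changes from 0 to 4 and 1 to 4 DAT, -0.086 within heat and 0.058 within control from 0 to 4 DAT. That setting gave -0.17 for 5A from 1 to 4 DAT and 0.049 within control from 0 to 4 DAT. Summed with 5B, 5A was 0.10 at 4 DAT. With the pool of plants as a replicate block 5A was 0.036 within control from 0 to 4 DAT. The causes were not tested.

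Leaving out single libraries turned the sign of these uncalled values. For 1A they ranged from -0.14 to 0.30 at 1 DAT, -0.015 to 0.45 at 4 DAT, -0.061 to 0.38 in the change from 0 to 1 DAT, -0.12 to 0.41 from 1 to 4 DAT and -0.018 to 0.31 within heat from 0 to 4 DAT. Within control 1A ranged from -0.070 to 0.37 from 0 to 1 DAT and from -0.35 to 0.040 from 0 to 4 DAT. For 1B the ranges were -0.0029 to 0.57 at 1 DAT, -0.28 to 0.14 at 4 DAT and -0.46 to 0.11 in the change from 0 to 1 DAT. Within control they were -0.040 to 0.53 from 0 to 1 DAT, -0.038 to 0.27 from 0 to 4 DAT and -0.42 to 0.15 from 1 to 4 DAT. For 5A they were -0.23 to 0.044 at 4 DAT, -0.078 to 0.33 from 1 to 4 DAT and -0.17 to 0.23 within control from 0 to 4 DAT.

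Counts of calls over all transcripts at 1 DAT were 7361, against 4361 with total counts alone and 3513 with only the 8 libraries of that time. At 4 DAT they were 98, against 655 with DESeq2, 482 with the likelihood ratio test, 205 per gene, 60 with total counts alone, 45 without a filter, 44 with the replicate block, 3 without the 4 libraries named above and 1 with only the 8 libraries, and 12 to 62 with 1 library left out. For the change from 0 to 1 DAT they were 3846, against 2398 with total counts alone, 6125 with DESeq2 and 2406 with the pool block. From 0 to 4 DAT they were 5580, against 2969 without the 4 libraries. From 1 to 4 DAT they were 1018, against 2252 with DESeq2, 1735 with the likelihood ratio test, 560 without a filter, 396 with the pool block, 264 without the 4 libraries and 494 at the lowest with 1 library left out. The share of calls that were higher moved with total counts alone from 54.2% to 72.1% at 1 DAT, from 38.8% to 15% at 4 DAT, and from 63.2% to 31.0%, 58.6% to 14.8% and 16.8% to 2.29% in the changes from 0 to 1, 0 to 4 and 1 to 4 DAT.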
